A study of Homo sapiens with 6 samples.

Results

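The genes described here lie on chromosome 18, from the start of PSMG2 at position 12658043 to the end of CTDP1 at position 79756623, and along the whole of chromosome 21 (GRCh38). Genes were taken where at least 10 counts were found in 3 or more of the 6 libraries, and a set of names was left out. This gave 138 genes on chromosome 18 and 149 on chromosome 21, or 287 of the 58735 genes counted. The regions were chosen by the difference between ADRr and parent cells itself, so every comparison of these groups below is a description and carries no test of its own.

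The libraries came from MDA-MB-231, a human triple-negative breast cancer line, and from ADRr cells, which were derived from it by stepwise selection in rising doses of Adriamycin (ADR) and then isolated as single clones. ADR is doxorubicin, an anthracycline that intercalates into DNA and poisons topoisomerase II. Each group had 3 libraries. Both groups carry the wild-type label and were grown in DMEM with fetal bovine serum, and the dose of ADR at harvest, if any, is not given. Since ADRr cells went through a clonal step, a trait of the clone and a trait of resistance cannot be told apart. Nothing in the labels says that the libraries of a group came from separate cultures, so their spread may be technical. The record also speaks of 3 time points, which the labels do not assign.

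MDA-MB-231 is an aneuploid line, in which chromosomes are present in unequal numbers and with rearrangements. Chromosome 21 is the smallest human autosome, and an extra copy of it causes Down syndrome. It carries the interferon receptor cluster, the amyloid precursor protein and the transcription factors RUNX1, ETS2 and BACH1. Chromosome 18 is poor in genes and carries, among others, the ubiquitin ligase NEDD4L, the kinase ROCK1 and the zinc-finger factor GATA6. Only RNA was analysed here. In bulk libraries fewer cells that use a gene and less RNA per cell cannot be told apart.

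Total counts ranged from 15983985 to 18272314 per library. VIM, CD44, EGFR and AXL, genes of this line, were at 37.7 FPKM or more in every library, while ESR1 and PGR were at 0.00 FPKM to 2 decimals. The other 3 genes taken as low or absent in this line were counted: ERBB2 was at 10.7 to 12.4 FPKM in parent and 4.67 to 5.11 in ADRr cells, EPCAM at 3.73 to 5.86 and 10.4 to 10.7, and CDH1 at 2.09 to 2.59 and 0.94 to 1.29. Of the 6 leukocyte markers, PTPRC, CD53, TYROBP and LYZ were at 0.101 FPKM or less, CORO1A was at 0.42 to 0.56 FPKM in parent and 1.03 to 1.39 in ADRr cells, and LAPTM5 at 15.4 to 16.7 and 25.01 to 26.4. The last pair was higher in every ADRr library, and the 6 summed to 15.9 to 17.2 FPKM in parent and 26.1 to 27.7 in ADRr cells. Their part in the results was not tested.

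Upstream sequence is shown for 6 genes, 3 on each chromosome, which stand for the largest rises (MEX3C, TNFRSF11A and USP25), for falls within the raised regions (PHLPP1 and C21orf58) and for a gene of high level (APP). The sequences are RefSeq promoter windows of GRCh38.p14, read 5′ to 3′ on the strand of the gene, trimmed to the part before the start site that no annotated exon covers. Capitals mark matches to the GC box, GGGCGG or its reverse complement CCGCCC. The window of MEX3C is chr18:51197682-51197931 on the minus strand, within an intron of the longer GENCODE 29 gene. That of TNFRSF11A is chr18:62325060-62325286 on the plus strand, and that of PHLPP1 is chr18:62715291-62715449 on the plus strand, both outside every annotated gene body. The USP25 window, chr21:15729732-15729981 on the plus strand, also lies outside gene bodies. The APP window, chr21:26171129-26171378 on the minus strand, falls within introns of the noncoding genes AP000229.1 and AP001439.1. The C21orf58 window is chr21:46320826-46321075 on the minus strand, within an intron of C21orf58.
MEX3C: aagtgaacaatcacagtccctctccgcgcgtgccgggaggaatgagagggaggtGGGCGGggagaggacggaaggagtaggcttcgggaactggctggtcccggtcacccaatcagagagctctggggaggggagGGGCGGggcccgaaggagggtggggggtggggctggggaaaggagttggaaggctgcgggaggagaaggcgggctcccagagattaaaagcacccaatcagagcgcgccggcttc
TNFRSF11A: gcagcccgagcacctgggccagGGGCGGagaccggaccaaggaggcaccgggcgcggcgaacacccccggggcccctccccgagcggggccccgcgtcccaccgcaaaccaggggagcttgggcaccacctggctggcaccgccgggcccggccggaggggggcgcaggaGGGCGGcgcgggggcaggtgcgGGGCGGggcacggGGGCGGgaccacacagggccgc
PHLPP1: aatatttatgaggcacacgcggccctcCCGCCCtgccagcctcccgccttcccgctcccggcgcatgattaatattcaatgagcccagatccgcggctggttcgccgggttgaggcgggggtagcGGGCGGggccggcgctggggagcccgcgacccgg
USP25: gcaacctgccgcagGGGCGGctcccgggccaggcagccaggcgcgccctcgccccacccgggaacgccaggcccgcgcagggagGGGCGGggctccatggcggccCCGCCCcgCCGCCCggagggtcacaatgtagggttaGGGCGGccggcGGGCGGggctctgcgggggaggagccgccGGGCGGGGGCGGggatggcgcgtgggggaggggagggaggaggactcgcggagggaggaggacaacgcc
APP: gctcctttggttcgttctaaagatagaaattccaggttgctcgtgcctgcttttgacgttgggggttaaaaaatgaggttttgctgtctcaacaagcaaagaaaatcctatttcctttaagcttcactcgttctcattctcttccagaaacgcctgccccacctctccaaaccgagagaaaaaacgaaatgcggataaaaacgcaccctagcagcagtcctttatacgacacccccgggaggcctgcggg
C21orf58: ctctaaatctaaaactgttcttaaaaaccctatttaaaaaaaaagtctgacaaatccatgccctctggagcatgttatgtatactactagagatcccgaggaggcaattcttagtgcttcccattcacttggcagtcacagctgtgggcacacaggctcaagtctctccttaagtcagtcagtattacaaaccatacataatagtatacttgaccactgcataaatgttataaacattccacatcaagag

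The USP25 stretch held 8 matches, that of TNFRSF11A held 4, those of MEX3C and PHLPP1 held 2 each, and those of APP and C21orf58 held 0. Only the first listed window of a symbol was read, here and in the shares below. Other start sites of a gene were not covered, so a count of 0 describes the stretch shown and not every promoter of the gene. RefSeq windows were matched by symbol for 99 of the 138 genes on chromosome 18 and 92 of the 149 on chromosome 21. In the 250 bases before the start site, a GC box was present in 68.7% of the chromosome 18 windows and 64.1% of the chromosome 21 windows. The share was 67.2% for the tested genes elsewhere in the genome and 42.3% over the first listed windows of all RefSeq symbols. The ETS core, CCGGAA or TTCCGG, was present in 25.3% and 30.4% of the windows of the 2 chromosomes, beside 25.1% for tested genes elsewhere and 14.8% over all symbols. TATAAA or TTTATA was present in 4.04% and 7.61%, beside 5.19% and 11.1%. A match is a description of letters and not of a bound site.

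Counts on the chromosome 18 genes made up 0.445, 0.461 and 0.426% of the 3 parent libraries and 0.725, 0.715 and 0.721% of the 3 ADRr libraries. On chromosome 21 the shares were 0.589, 0.596 and 0.587% in parent cells and 0.892, 0.889 and 0.883% in ADRr cells. The groups did not overlap on either chromosome, and the ADRr libraries lay close together, with an SD of 0.00494 percentage points on chromosome 18 and 0.00419 on chromosome 21 (n = 3). Set against the parent mean gene by gene, the median gene of chromosome 18 stood at log2 0.61, 0.57 and 0.59 in the ADRr libraries, and that of chromosome 21 at 0.70, 0.68 and 0.66. For the genes outside both chromosomes the same medians lay at -0.02 in each ADRr library.

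**Figure D1:**
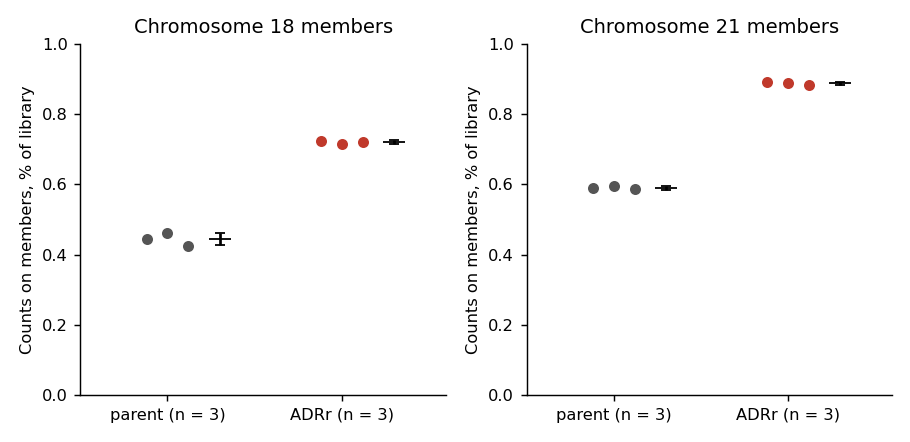
Counts on the chosen genes of chromosome 18 (left) and chromosome 21 (right) as a percentage of all counts of a library, 1 point per library, with the mean and SD of 3 libraries beside the points. The ADRr libraries lie between 0.715 and 0.725% on chromosome 18 and between 0.883 and 0.892% on chromosome 21, above all parent libraries.

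Of the 138 genes on chromosome 18, 137 had enough counts for the fit, and ANKRD30B did not. It had 20, 21 and 10 counts in parent cells and 3, 0 and 3 in ADRr cells. On chromosome 21, 148 of 149 were fitted, and the noncoding AP001065.1 was not. Among the genes that met the count limit through ADRr libraries alone, with under 10 counts in every parent library, were LIPG on chromosome 18 and 5 noncoding genes on chromosome 21. A gene that met the limit in this way had to differ. At least 10 counts in every library were found for 123 genes of chromosome 18 and 121 of chromosome 21.

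A gene was called higher or lower in ADRr cells where edgeR's quasi-likelihood test gave an adjusted p of at most 0.05 and the fold change was at least 1.2. Over all 15242 genes tested, 29.2% were called higher and 29.6% lower. On chromosome 18, 88 genes were called higher, 19 lower and 30 neither. On chromosome 21, 104 were called higher, 8 lower and 36 neither. The ADRr libraries all lay above the parent libraries for 34.5% of the genes tested, and all below them for 34.7%. This was so for 92 genes above and 22 below on chromosome 18, and for 107 above and 10 below on chromosome 21. Nothing is read from these counts, since the regions were chosen on them.

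The median log2 fold change was 0.59 on chromosome 18, a fold of 1.51, and its middle genes ran from 0.02 at the lower quartile to 1.14 at the upper. On chromosome 21 the median was 0.70, a fold of 1.63, with quartiles of 0.27 and 1.11. The tested genes outside both chromosomes had a median of -0.02. Among the other 21 chromosomes the median ran from -0.40 on chromosome 15 to 0.29 on chromosome 2. Genes within 0.5 of their own median made up 46.0% of chromosome 18 and 56.8% of chromosome 21, beside 54.1% of genes elsewhere. The extremes were wide, from -1.73 to 4.28 on chromosome 18 and from -2.45 to 4.05 on chromosome 21.

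**Figure D2:**
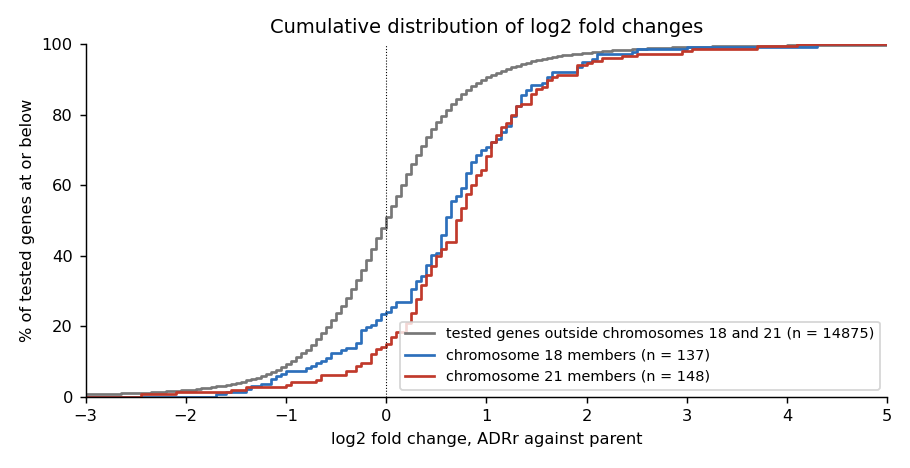
Share of tested genes (vertical axis, %) at or below each log2 fold change of ADRr against parent cells (horizontal axis), for 137 genes of chromosome 18, 148 of chromosome 21 and 14875 outside both. The curves of both chromosomes lie to the right of the curve of the other genes over most of their length, with medians of 0.59 and 0.70 against -0.02.

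The median was above 0 on both chromosomes at each level of expression, read as the mean FPKM of the 6 libraries. This level includes the ADRr values, so it is not independent of the difference. On chromosome 18 the median log2 fold change was 0.59 for the 35 genes under 1 FPKM, 0.59 for the 77 genes from 1 to 10 FPKM and 0.60 for the 25 genes at 10 FPKM or more. On chromosome 21 it was 0.77 for 35 genes, 0.75 for 81 genes and 0.39 for 32 genes in the same classes. Genes outside both chromosomes had medians of 0.00, -0.01 and -0.04 in these classes. The most abundant genes of chromosome 21 thus had a smaller median difference than its other genes, and the difference between these classes was not tested. LIPG, at a mean of 0.36 FPKM, met the count limit through ADRr libraries alone and so had to be higher, which bears on the lowest class of chromosome 18. Noncoding genes of chromosome 21 that met the limit in this way also had to be higher, and their classes were not counted apart.

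Protein-coding genes and other biotypes were also counted apart. On chromosome 18, of 114 protein-coding genes, 82 were called higher and 12 lower, with a median log2 fold change of 0.62. Of 23 genes of other biotypes, 6 were called higher and 7 lower, with a median of -0.16. On chromosome 21 the 116 protein-coding genes had 84 higher and 7 lower calls and a median of 0.69, and the 32 others had 20 higher and 1 lower call and a median of 0.92. These others include AP000704.1, AP001469.1, AP001469.2 and PAXBP1-AS1. Those genes met the count limit through ADRr libraries alone and so had to be higher, which bears on the median of 0.92.

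The label of the long arm did not hold for the whole of the chromosome 18 stretch. The widest piece of chromosome 18 without a listed gene start, 5.63 Mb wide, runs from position 15320840 to 20946906, and 15 of the 138 genes start before it. Of the 14 of these that were fitted, 3 were called higher and 7 lower, and their median log2 fold change was -0.61. The 123 genes beyond the gap had 85 higher and 12 lower calls and a median of 0.65. In steps of 10 Mb from 20 to 80 Mb, the median fold was 1.51, 1.67, 1.51, 1.86, 1.64 and 1.61. The rise thus ran along the long arm, and the short-arm end of the stretch lay on the other side of 0. Biotypes differed between these sides, as 8 of the 14 genes before the gap were protein-coding, beside 106 of the 123 beyond it. Genes of other biotypes on this chromosome had a median of -0.16, so position and biotype were not separated here.

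The start bound fell between genes that differed in direction. Just outside it lay PRELID3A with a log2 fold change of 0.86 ± 0.12 (SE), AP001029.2 with 0.52 ± 0.40, which was not called, and SPIRE1, an actin nucleator, with 0.94 ± 0.06. Just inside lay PSMG2, a proteasome assembly chaperone, with -0.12 ± 0.06, not called, CEP76, a centrosomal protein, with -0.84 ± 0.12, and AP005482.3 with -1.63 ± 0.44. If reads were counted without strand, SPIRE1 and PSMG2 could share reads where their exons meet, and so could PSMG2 and CEP76. The 50 tested genes before the start bound had 15 higher and 10 lower calls and a median of 0.10. At the other end, NFATC1, a calcineurin-regulated factor, had -0.30 ± 0.19 and was not called, AC068473.5 had 2.06 ± 0.38 and CTDP1, a phosphatase of RNA polymerase II, had 0.88 ± 0.08. Beyond the end bound lay PQLC1 with 0.34 ± 0.09, HSBP1L1 with 1.04 ± 0.10 and TXNL4A, a spliceosome protein, with 0.70 ± 0.07. The 9 tested genes there had 5 higher and 0 lower calls and a median of 0.70. The values did not change at the end bound as they did near the gap.

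Chromosome 21 had its widest gap, 2.35 Mb, between positions 10649400 and 12999676, and 8 of its 149 genes start before it. These had 5 higher and 1 lower call and a median of 0.73. Several are near-identical copies of genes of the long arm, among which the aligner has to divide reads, so they are uncertain as single rows. U2AF1L5 fell, with a log2 fold change of -0.74 ± 0.18, a call that limma-trend on FPKM did not make, and its copy U2AF1 encodes a splicing factor that reads the end of introns. Summed over both rows, their normalized counts were 239.8, 175 and 179 in parent cells and 236, 187 and 263 in ADRr cells, and the groups overlapped. SIK1 and SIK1B, copies of a salt-inducible kinase, summed to 264, 323 and 299 and to 732, 797 and 497, and TRAPPC10 and its copy FP565260.6, a vesicle-tethering subunit, to 679, 610.1 and 644 and to 1310.4, 1233 and 1279. Both of these sums were higher in every ADRr library. In steps of 10 Mb along the chromosome the median fold was 1.65, 2.38, 1.47, 1.62 and 1.63, with 7 genes in the second step and 67 in the last.

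**Figure D3:**
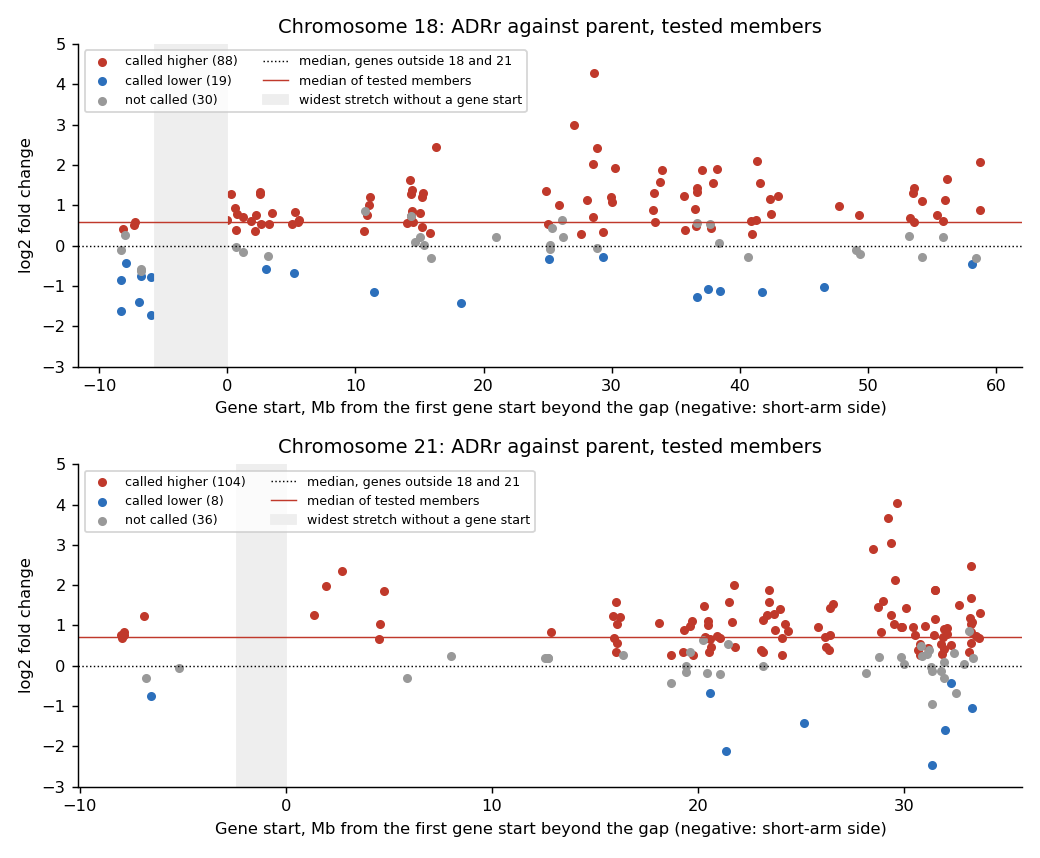
Log2 fold change of ADRr against parent cells for each tested gene of chromosome 18 (top, 137 genes) and chromosome 21 (bottom, 148 genes), by the distance of its start from the first gene start beyond the widest gap (Mb, negative on the short-arm side). Red points were called higher, blue lower and grey neither, with the median of the chosen genes as a line and that of genes elsewhere as a dotted line. On chromosome 18, 7 of the 19 blue points lie among the 14 genes left of the gap, while on chromosome 21 red points lie on both sides.

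Among the largest rises of chromosome 18 was LIPG, which encodes endothelial lipase. LIPG met the count limit through ADRr libraries alone, so it had to be higher in them. It had 9.26, 5.41 and 8.77 normalized counts in parent cells and 144, 163 and 157 in ADRr cells, a fold of 19.4 from a level near the count limit. ZBTB7C, a zinc-finger repressor, had 24.7, 21.6 and 44.8 in parent cells and 228, 244 and 259.6 in ADRr cells, a log2 fold change of 2.99 ± 0.19. Both genes were low in parent cells and all 3 ADRr libraries were several times higher. TNFRSF11A, the receptor RANK that activates NF-κB, had 53.5, 56.3 and 42.9 and then 233, 206 and 209, a log2 fold change of 2.09 ± 0.16. MEX3C, an RNA-binding ubiquitin ligase, had 267, 269 and 252 and then 1025, 996 and 979, a log2 fold change of 1.93 ± 0.08. TNFRSF11A and MEX3C are the genes whose upstream letters hold 4 and 2 GC boxes above, and those of PHLPP1, which was called lower, also hold 2.

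The largest falls of chromosome 18 came from both sides of the gap. LINC01444, a long noncoding RNA of the short-arm side, had 112, 89.8 and 119.8 normalized counts in parent cells and 32.4, 36.6 and 28.0 in ADRr cells. ZNF519, a zinc-finger protein gene of the same side, had 115, 129.8 and 111 and then 44.7, 47.1 and 43.0. On the long arm, ATP8B1, a flippase that moves phospholipids between membrane leaflets, had 915, 975 and 827 and then 384, 335 and 404, a log2 fold change of -1.27 ± 0.09. PHLPP1, a phosphatase that removes phosphate from AKT, had 362, 317 and 336 and then 146, 155 and 156, a log2 fold change of -1.15 ± 0.11. The groups did not overlap for any of these 4 genes. ATP8B1 starts near NARS and NEDD4L, both of which were called higher.

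On chromosome 21 the largest rise was that of PDE9A, which hydrolyses cyclic GMP. It had 13.4, 17.3 and 14.6 normalized counts in parent cells and 269, 244 and 241 in ADRr cells, a fold of 16.6. ABCG1, a transporter that exports cholesterol, had 15.4, 16.2 and 11.7 and then 215, 186 and 150.4, a fold of 12.7. TMPRSS2, a serine protease of the cell surface, had 97.8, 77.9 and 94.5 and then 698, 657 and 672, a log2 fold change of 2.90 ± 0.11. These 3 genes start within 1.19 Mb of one another. USP25, a deubiquitinase gene near the gap, had 167, 189 and 159.7 and then 854, 853 and 904, a log2 fold change of 2.34 ± 0.09.

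Few genes of chromosome 21 fell. TRPM2, a calcium channel opened by ADP-ribose and oxidants, had 101, 95.2 and 116 normalized counts in parent cells and 17.1, 25.1 and 14.9 in ADRr cells, a log2 fold change of -2.45 ± 0.24. C21orf58 had 220.2, 213 and 239.6 and then 105, 108 and 114, a log2 fold change of -1.04 ± 0.13. DONSON, a protein of the replication fork, had 774, 911 and 819 and then 567, 512 and 502, a log2 fold change of -0.66 ± 0.08. It shares 16.9% of its exon bases with other genes, among them SON, which was called higher. SMIM11A was also called lower, but 1 parent library decided this: its counts were 6, 145 and 6 in parent cells and 12, 14 and 13 in ADRr cells. Its log2 fold change of -2.11 turned to 1.06, not called, without parent replicate 2.

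**Figure D4:**
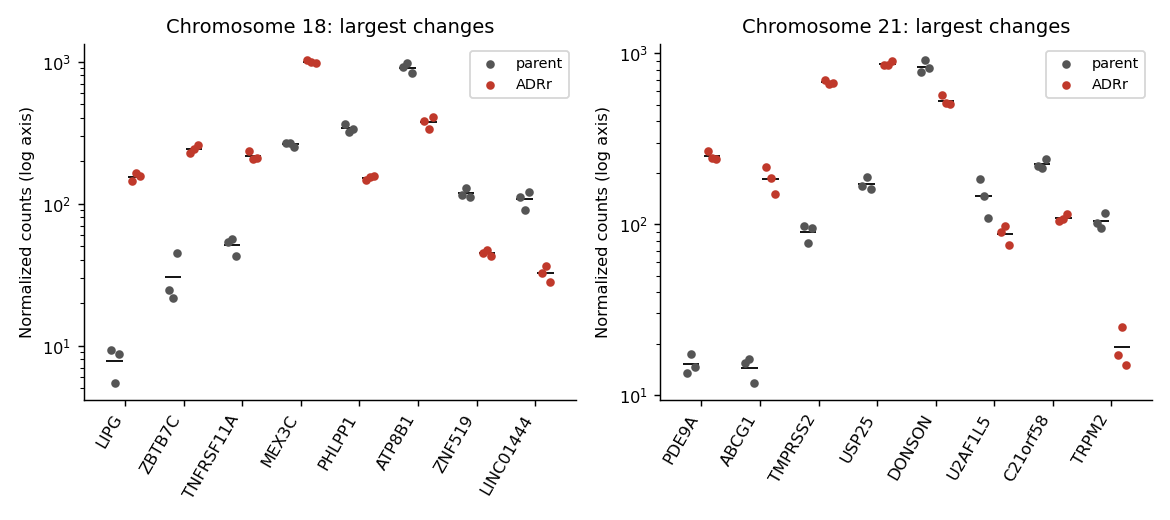
Normalized counts (log axis) in 3 parent libraries (grey) and 3 ADRr libraries (red) for the 4 largest rises and the 4 largest falls of chromosome 18 (left) and chromosome 21 (right), with bars at the group means. The groups do not overlap for any gene shown, and LIPG, PDE9A and ABCG1 are under 20 in every parent library.

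By role, the genes of chromosome 18 were read in 7 lists that cover 100 of its 138 genes. Over the chosen genes of the chromosome 64.2% were called higher and 13.9% lower, beside 29.2% and 29.6% over all tested genes. No list was tested against these shares. The ubiquitin ligases and proteins of turnover had 9 of 11 genes called higher and 0 lower, with a median log2 fold change of 0.80. Of these the most abundant per length was NEDD4L, a ligase that marks sodium channels and other membrane proteins for removal. It had 3276, 3363 and 3209 normalized counts in parent cells and 11982, 11742 and 12203 in ADRr cells, a log2 fold change of 1.87 ± 0.05. RNF138, a ligase that acts at DNA breaks, had 1.19 ± 0.07. The factors of transcription and chromatin had 17 of 22 genes higher and 2 lower, with a median of 0.74. ZNF24 had 0.87 ± 0.06, GATA6, a factor of endoderm, had 0.71 ± 0.07 and SS18, a subunit of SWI/SNF remodelling complexes, had 0.53 ± 0.06. All 9 genes of RNA processing and translation were called higher, with a median of 1.09. NARS, the cytosolic asparaginyl-tRNA synthetase, had 2147, 2381 and 2010.3 and then 5518, 5607 and 5393 normalized counts, and SNRPD1, an Sm core protein, rose by 0.39 ± 0.06. RNMT, which methylates the mRNA cap and lies on the short-arm side, had 0.58 ± 0.06.

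The kinases, phosphatases and signalling adaptors of chromosome 18 had 9 of 13 genes higher and 3 lower, with a median of 0.44. RIOK3, an atypical kinase, had 1167, 1344 and 1153 normalized counts in parent cells and 3011, 2963 and 2883 in ADRr cells, a log2 fold change of 1.27 ± 0.06. ROCK1, the kinase that drives actomyosin contraction, had 1740.2, 1968 and 1659 and then 2797, 2655 and 2811, a log2 fold change of 0.62 ± 0.06. It is the first listed gene beyond the gap. PTPN2, a phosphatase that acts on JAK and STAT proteins, had 0.40 ± 0.07 and lies on the short-arm side. In membrane traffic 12 of 16 genes were higher and 2 lower, with a median of 0.76. EPG5, which helps autophagosomes fuse with lysosomes, had 2854, 2729 and 2548 and then 7106, 6875 and 6907, a log2 fold change of 1.36 ± 0.05, and VPS4B, an ATPase of the ESCRT machinery, had 0.78 ± 0.07. LMAN1, a cargo receptor between the endoplasmic reticulum and the Golgi, had 0.08 ± 0.05 with overlapping groups.

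Metabolism and mitochondria had 13 of 19 genes higher and 1 lower on chromosome 18, with a median of 0.52. The gene called lower was ATP5F1A, the alpha subunit of ATP synthase, at 37.6 FPKM in parent cells and 30.0 FPKM in ADRr cells. Its normalized counts were 7189, 7066 and 7279.6 and then 5649, 5879 and 5567, a log2 fold change of -0.33 ± 0.05. SLC39A6, a zinc importer, had 0.45 ± 0.06, and GALNT1, which starts O-linked glycans, had 0.09 ± 0.06 with overlapping groups. Segregation and repair had 5 of 10 genes higher and 2 lower, with a median of 0.28. RBBP8, which encodes the DNA end resection factor CtIP, had 0.60 ± 0.07. HAUS1, a spindle protein, had 0.02 ± 0.08 and SEH1L, a nucleoporin, had 0.26 ± 0.06, and neither was called.

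For chromosome 21, 8 lists cover 94 of the 149 genes. Over its chosen genes 70.3% were called higher and 5.41% lower, beside 29.2% and 29.6% over all tested genes, and no list was tested against these shares. The interferon and interleukin 10 receptor chains had 3 of 4 genes called higher and 0 lower, with a median of 0.71. IFNAR1, a chain of the type I interferon receptor, had 1089, 1204 and 1001 normalized counts in parent cells and 1875, 1759 and 1788 in ADRr cells, a log2 fold change of 0.72 ± 0.07. IFNGR2, a chain of the interferon gamma receptor, had 865, 941 and 1010.0 and then 1472, 1564 and 1520.5, a log2 fold change of 0.69 ± 0.07. Both chains rose by about the median of the chromosome. IFNAR2 and IL10RB were counted at a much lower level. IFNAR2 had 20.6, 9.74 and 11.7 and then 26.6, 19.9 and 19.6 and was not called, and IL10RB, a chain of the interleukin 10 receptor, had 2, 6 and 14 raw counts and then 22, 26 and 17. Its log2 fold change of 1.49 ± 0.48 was called, but the call was lost without parent replicate 1, where it was 1.04, and without ADRr replicate 2, where it was 1.29. Without parent replicate 3 it was 2.29 and was called. IFNAR2 shares 83.2% of its exon bases with other listed genes, and IL10RB 38.1%, among them the readthrough gene AP000295.1, so how shared reads were treated bears on both levels.

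The factors of transcription and chromatin on chromosome 21 had 12 of 15 genes higher and 0 lower, with a median of 0.89. BACH1, a repressor of haem and oxidant response genes, had 843, 969 and 819 normalized counts in parent cells and 2011, 2037 and 2014 in ADRr cells, a log2 fold change of 1.21 ± 0.07. ETS2, an ETS factor downstream of RAS signalling, had 0.95 ± 0.05, and HMGN1, a nucleosome-binding protein, had 0.38 ± 0.05. All 9 kinases, phosphatases and adaptors were called higher, with a median of 1.03. RCAN1, an inhibitor of calcineurin, had 604, 597 and 663 and then 1773, 1913 and 1899, a log2 fold change of 1.58 ± 0.07. RIPK4, a kinase of epidermal differentiation, had 1.45 ± 0.11, and ITSN1, a scaffold of endocytosis, had 0.46 ± 0.06.

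The cell surface list of chromosome 21 had 8 of 15 genes higher and 2 lower, with a median of 0.66. APP, the amyloid precursor protein, had 8869.6, 8791 and 8989.9 normalized counts in parent cells and 15762, 15919.9 and 16166 in ADRr cells, a log2 fold change of 0.84 ± 0.04. BACE2, a protease that can cut APP, had 2005, 1923 and 2003 and then 1764, 1778 and 1717. Its log2 fold change of -0.17 ± 0.06 was under the fold threshold. CLIC6, of the chloride intracellular channel family, had 1.08 ± 0.08. Folding, ubiquitin and traffic had 15 of 16 genes higher and 0 lower, with a median of 0.69. CCT8, a chaperonin subunit, had 0.55 ± 0.05 and CSTB, an inhibitor of cathepsins, had 0.55 ± 0.06. The exception was SUMO3, a ubiquitin-like modifier, with 4093, 4109.6 and 4135 and then 3859.8, 3746 and 3742, a log2 fold change of -0.12 ± 0.05 that was not called.

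Metabolism and mitochondria on chromosome 21 had 9 of 17 genes higher and 1 lower, with a median of 0.66. GART, an enzyme of purine synthesis, had 2256, 2464 and 2262 normalized counts in parent cells and 4810.4, 4569 and 4745 in ADRr cells, a log2 fold change of 1.02 ± 0.05. LSS, the lanosterol synthase of the cholesterol pathway, had 1526, 1529.6 and 1639 and then 3523, 3626 and 3534, a log2 fold change of 1.19 ± 0.05. ATP5PF, a subunit of ATP synthase, had 0.19 ± 0.08 with overlapping groups. RNA processing and ribosome assembly had 12 of 14 genes higher and 0 lower, with a smaller median of 0.48. All 14 had a log2 fold change above 0, U2AF1 among them. Its copy U2AF1L5, which was called lower, is not in the list, and the sum of both rows overlapped between groups. The U2AF1 row is thus uncertain here. SON, a splicing cofactor, had 0.35 ± 0.05, RRP1B had 0.40 ± 0.06 and RRP1 had 0.27 ± 0.07, a call lost when parent replicate 1, parent replicate 2 or ADRr replicate 1 was left out, where it was 0.24 to 0.25, under the fold threshold. In the list of replication, centrosome and centromere, 2 of 4 genes were higher and 1 lower, with a median of 0.27: BTG3, an antiproliferative protein, had 1.03 ± 0.09 and MIS18A, which helps load the centromeric histone, had 0.35 ± 0.10, a call lost without parent replicate 2, where it was 0.23.

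PTTG1IP, which binds the securin PTTG1, had the highest FPKM among the chosen genes of either chromosome, at 268 FPKM in parent cells and 333 FPKM in ADRr cells. Its normalized counts were 16286, 16671 and 16832 and then 20470.2, 21036 and 20023, a log2 fold change of 0.31 ± 0.04. The groups did not overlap, and its difference was less than that of the median gene. Of the 13 names left out on chromosome 18, 10 were called higher and 3 lower. Their median log2 fold change was 0.62, beside 0.59 for the chosen genes. Of the 10 left out on chromosome 21, 5 were called higher and 2 lower. Their median of 0.25 was lower than the 0.70 of the chosen genes there.

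**Figure D5:**
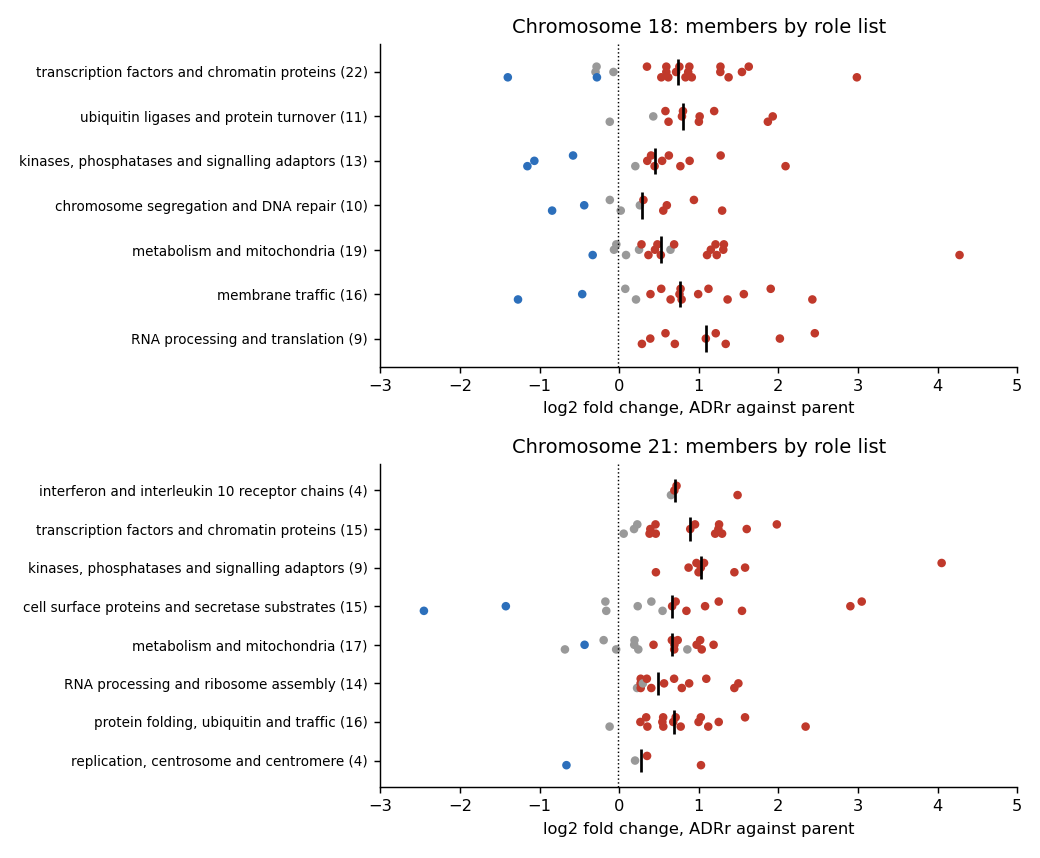
Log2 fold change of ADRr against parent cells (horizontal axis) for the tested genes of each role list on chromosome 18 (top) and chromosome 21 (bottom), with the number of genes in brackets. Red points were called higher, blue lower and grey neither, black bars are list medians and the dotted line is the median of genes outside both chromosomes. List medians lie between 0.28 and 1.09 on chromosome 18 and between 0.27 and 1.03 on chromosome 21.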

How the data were processed

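RNA from 3 parent and 3 ADRr libraries of MDA-MB-231 cells was used. According to the methods, poly(A) RNA was selected, and CORALL kit libraries were read in pairs on a NovaSeq. The labels name a TruSeq cluster kit, which the methods also give for the clustering step, and another amount of input RNA. The sources thus differ on library preparation, and which holds for these libraries is not settled here. The submitters' processing notes list fastp, HISAT2 2.0.5, featureCounts 1.5.0-p3, DESeq2 1.20.0 and GRCh38. The strand setting is not given in the sources used here. The deposited count table gives whole-number, unscaled counts for each gene. The second table gives FPKM, which the authors scaled by gene length and library size. Identifiers and lengths of all 287 genes were the same as in GENCODE 29.

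In R 4.3.3, counts of genes kept by filterByExpr (15242) were scaled by TMM and tested with edgeR 4.0.16 (quasi-likelihood, Benjamini-Hochberg adjustment over all genes tested, no block, as the study names none). Calls needed an adjusted p no higher than 0.05 and a fold of 1.2 or more. The test was tried on made data before use. Normalized counts are counts scaled to a common TMM library size, and errors of log2 fold changes are standard errors of the fit. Counting precision followed totals of 15983985 to 18272314 per library. No libraries of a group agreed within sampling noise.

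Named are, on each chromosome, the 4 largest rises and 4 largest falls whose higher group averaged 100 or more normalized counts and whose groups did not overlap, up to 3 genes of each role list by FPKM, the 3 genes on each side of the bounds on chromosome 18, and the 3 of highest FPKM. A gene that this rule selects is not reported here. The rows of copies, ANKRD30B, AP001065.1, SMIM11A and IL10RB were added after their values were seen. The genes and lists were chosen with earlier results of these data known.

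Alternatives were other scalings, DESeq2 1.42.0, other filters, limma-trend (limma 3.58.1) on log2 of FPKM with a pseudocount of 1 or 0.1, a replicate block, each library left out, other thresholds and other cuts of the regions.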

Additional observations from a re-analysis of the deposited data

How the results depend on the processing

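With the fold threshold raised to 1.2 on the log2 scale, calls fell to 1114 higher and 972 lower over all genes, to 32 and 5 on chromosome 18, and to 33 and 4 on chromosome 21. Some alternatives held fewer genes. Protein-coding genes fitted alone gave 83 higher and 12 lower of 114 on chromosome 18, beside 88 and 19 of 137 in the main fit. Their median log2 fold change was 0.63. The long-arm side of chromosome 18 alone gave 85 higher and 12 lower of 123 and a median of 0.65. Without genes whose exons overlap another gene, an alternative chosen after seeing the data, chromosome 18 had 53 higher, 7 lower and a median of 0.62, and chromosome 21 had 60 higher, 4 lower and 0.66. Library size alone moved the medians to 0.62 and 0.73. On log2(FPKM + 1), limma-trend gave medians of 0.42 and 0.54 and 5 lower calls on chromosome 21, and with a pseudocount of 0.1 a median of 0.57 on chromosome 18 and 5 lower calls on chromosome 21. A pseudocount shrinks the fold of low genes by construction, and the cause of the other moves was not tested.

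With 1 library left out at a time, higher calls ranged from 84 to 90 and lower calls from 18 to 20 on chromosome 18, and from 94 to 101 and 7 to 10 on chromosome 21. The medians ranged from 0.57 to 0.61 and from 0.67 to 0.73. HAUS1, which was not called, turned to -0.024 without parent replicate 2, and ranged from -0.024 to 0.049 over the libraries left out. SMIM11A, called lower at -2.11, turned to 1.06 without the same library, and ranged from -2.66 to 1.06. With a replicate block, 87 and 19 genes of chromosome 18 and 100 and 8 of chromosome 21 were called, and it changed no call of a named gene. Same-numbered libraries did not deviate together (correlations of 0.01, -0.02 and -0.05). This gave no sign of a shared effect, but it cannot show that the numbers mark no pairing. Of the 75 named genes, 41 lost a call at the stricter fold and 5 gained a call under some setting, and RRP1, U2AF1L5, MIS18A, IL10RB and SMIM11A lost theirs under other settings too. No setting moved the median of all tested genes by more than 0.1.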
